A study of Talpa occidentalis with 6 samples.

Results

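Long closed stretches are runs of adjacent 200 bp bins that were in a closed chromatin state in 3 gonadal tissues of the Iberian mole (Talpa occidentalis) at once, without a break, over 20000 bp or more. Bins count as closed in states 4 and 5 of the 5 numbered states that the authors assigned from ATAC-seq, an assay that reads open DNA by where a transposase can cut it and attach adapters. A run was kept if state 5 filled less than 50% of its bins in each tissue, and if it lay on scaffolds 1 to 17 of the assembly talOcc4, without scaffold 15. On these 16 scaffolds 1381 runs met the rule, out of 259262 runs of any length that were closed in all 3 tissues. That is 0.533% of those runs.

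The tissues were both portions of the female ovotestis, ovarian and testicular, and the male testis, each from wild-type animals at postnatal day 7 with 2 samples, 6 samples in all. In this species every female has ovotestes in place of ovaries. The labels name no transgene, deletion or treatment. Gonads were dissociated into single cells and the labels name no sort, so each tissue may mix cell types. The authors gave 1 segmentation for both samples of a tissue, so each value below is a pooled value per tissue, without a spread between samples and without a test. The sequencing depth is unknown. Library numbers place both portions in 1 series and the testis in another, so tissue and series cannot be told apart where the testis differs.

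Much of a mammalian genome lies in compact chromatin that transposase rarely enters. Such chromatin is typical of gene-poor sequence, of repeats and of the domains that contact the nuclear lamina, and large parts of it are shared by the tissues of an animal. Accessible sites, by contrast, gather at promoters and at enhancers, and many enhancers differ between cell types. In the mole segmentations state 1 stands at the accessible end of an ordered series and state 5 at the other end, by the deposited colours and the order of the states. State 3 lies next to the closed states in this series and is not counted as accessible. It was not tested whether state 5 is closed chromatin or sequence without reads.

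The stretches are selected from the closed states themselves, so their length, number and content describe the selection and carry no test. The ground they were taken from is wide. On the 16 scaffolds 62.2% of the bins were in state 4 or 5 (ovarian portion), 60.9% (testicular portion) and 60.3% (testis). Bins closed in all 3 tissues made up 44.1% of the sequence.

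Common closed chromatin was finely broken, and only a small part of it lay in long stretches. The stretches summed to 36.8 Mb, or 1.92% of the 1916 Mb segmented on the 16 scaffolds and 4.36% of the sequence closed in all 3 tissues. The closed runs that kept below the limit on state 5 numbered 252447, with a median of 2000 bp. Runs of 1000 bp to less than 5000 bp were the largest class by length, with 150241 runs and 355 Mb. Runs of 10000 bp to less than 20000 bp numbered 10741 and summed to 139 Mb.

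Most stretches were little longer than the limit. Their median length was 24000 bp, or 120 bins, their quartiles were 21600 bp and 28200 bp, and their mean was 26682 bp. At least 30000 bp was reached by 278 stretches (20.1%), at least 40000 bp by 86 (6.23%), at least 50000 bp by 34 (2.46%) and at least 60000 bp by 19 (1.38%). One stretch passed 100000 bp, with 104800 bp. The counts showed no step at the limit. Just inside it, 59 runs had 20000 bp and 36 had 20200 bp, and just outside it 54 had 19800 bp and 61 had 19600 bp. In steps of 10000 bp the number dropped at each step up to 60000 bp, with 1103 stretches in the class from 20000 bp, 192 in the class from 30000 bp, 52 from 40000 bp and 15 from 50000 bp.

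**Figure D1:**
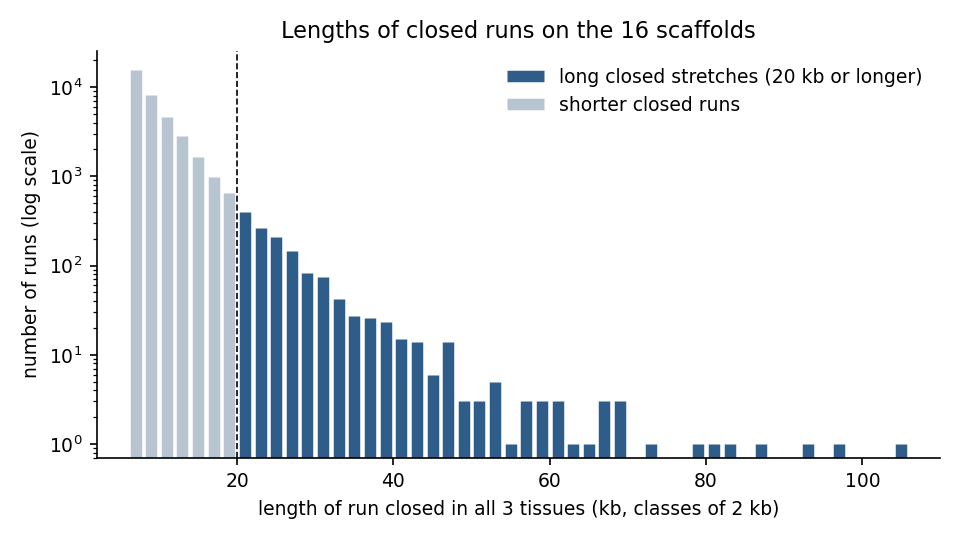
Number of runs closed in all 3 tissues (log axis) by length in classes of 2 kb, for the 16 scaffolds and with state 5 in less than 50% of the bins. The dashed line marks 20 kb, the counts pass it without a step, and the tail reaches 104800 bp.

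The longest stretches gathered on scaffold 2. It held 17 of the 34 stretches of 50000 bp or more and 10 of the 19 of 60000 bp or more. The longest of all lay at talOcc4 scaffold 2, 19848801 to 19953600. State 5 filled 23.7% (ovarian portion), 23.9% (testicular portion) and 18.3% (testis) of this stretch. Its left end was set by state 3 in the testicular portion and its right end by state 3 in the ovarian portion. The second longest, of 97400 bp, lay at 53670601 to 53768000 of the same scaffold, with 22.0%, 15.8% and 18.3% of its bins in state 5 in the same order of tissues. The third, of 92800 bp, lay on scaffold 4 at 82897601 to 82990400, with 17.5% (ovarian portion), 19.0% (testicular portion) and 15.7% (testis).

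The next 4 were again on scaffold 2. Of these, the stretch at 52841001 to 52928000 spanned 87000 bp, that at 54246001 to 54329200 spanned 83200 bp, that at 20231001 to 20311600 spanned 80600 bp and that at 53246201 to 53325400 spanned 79200 bp. All 4 held much state 5, from 39.2% to 46.2% of their bins (ovarian portion), from 31.3% to 48.9% (testicular portion) and from 16.3% to 47.1% (testis). Some long stretches elsewhere held less. The stretch at scaffold 7, 123774201 to 123846600, spanned 72400 bp with 0.829% of its bins in state 5 (ovarian portion), 1.38% (testicular portion) and 0.829% (testis). Another, at scaffold 12, 44539001 to 44608400, spanned 69400 bp with 8.36%, 8.36% and 4.61%. The tenth, on scaffold 7 at 101186801 to 101255000, spanned 68200 bp with 32.0%, 37.2% and 21.1%. A stretch on scaffold 14 at 14937201 to 15005400 had the same length with 7.04%, 6.16% and 4.4%.

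State 5 was a minor component of the stretches as a whole. It filled 7.1% (ovarian portion), 6.69% (testicular portion) and 6.24% (testis) of their length, against 2.24%, 2.28% and 2.1% of all bins on the 16 scaffolds. Every bin of a stretch is closed, and among bins closed in all 3 tissues state 5 took 5.05%, 5.15% and 4.73%. The ovarian portion had no bin of state 5 in 680 stretches (49.2%, 95% interval 46.6% to 51.9%), the testicular portion had none in 727 (52.6%, 50.0% to 55.3%) and the testis none in 565 (40.9%, 38.3% to 43.5%). These and all later intervals are Wilson 95% intervals and cover counting error only. The tissues did not place state 5 in identical bins. Of the 19311 bins of the stretches that were in state 5 in any tissue, 36.1% were so in all 3. A further 17.6% were in state 5 only in the ovarian portion, 12.7% only in the testicular portion and 14.8% only in the testis.

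State 5 was higher in long stretches and on scaffold 2, in each tissue. In stretches of 50000 bp or more it filled 19.2% of the length (ovarian portion), 17.4% (testicular portion) and 14.6% (testis). In shorter stretches it filled 6.32%, 6.0% and 5.7%. On scaffold 2 the values were 17.8%, 15.7% and 13.0%, and on the other 15 scaffolds 5.29%, 5.16% and 5.09%. Scaffold 2 was also higher as a whole, with state 5 in 5.31%, 5.51% and 4.86% of all its bins. On the other 15 scaffolds that share ranged from 1.28% to 3.3% (ovarian portion), from 1.29% to 3.37% (testicular portion) and from 1.25% to 3.15% (testis). Since 17 of the 34 stretches of 50000 bp or more lay on scaffold 2, both were also separated. The 17 long ones on scaffold 2 had 29.3% (ovarian portion), 25.9% (testicular portion) and 22% (testis), and the 17 on other scaffolds had 8.11%, 8.15% and 6.53%. Among shorter stretches the 152 on scaffold 2 had 14.6%, 12.9% and 10.5%, and the 1195 on other scaffolds had 5.19%, 5.06% and 5.04%, near the share of all bins closed in 3 tissues. The limit on state 5 removed 132 further runs of 20000 bp or more, of which 76 were on scaffold 2 and 23 on scaffold 1. These had a median of 34400 bp and summed to 7.45 Mb. The largest covered the start of scaffold 1, from 201 to 1223400. Near the limit, members with the most state 5 in any tissue had 49.7% and 49.0%, and the nearest runs outside had 50.7% and 51.6%.

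Stretches made of state 4 alone were common and shorter. In 375 stretches (27.2%) no tissue had a bin of state 5. Their median was 23000 bp, against 24600 bp for the other 1006. The longest of them was on scaffold 11 at 76832401 to 76875400, with 43000 bp, followed by 41000 bp on scaffold 5 at 121611401 to 121652400. Scaffold 2 held 20 of the 375. Inside stretches that also held state 5, state 4 alone ran longer in places. The longest such run common to the 3 tissues spanned 55800 bp on scaffold 14, from 14949601 to 15005400, within the stretch of 68200 bp given above.

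The share of a scaffold in long closed stretches ranged from 1.03% on scaffold 6 to 3.46% on scaffold 2, a factor of 3.36, with a median of 1.8%. Scaffold 2 held 169 stretches, or 12.2% of them on 8.01% of the sequence. Scaffold 9 followed with 139 stretches and 3.1%, then scaffold 14 with 95 and 2.76% and scaffold 12 with 98 and 2.66%. At the low end scaffold 4 held 63 stretches and 1.11%, and scaffold 13 held 54 and 1.28%. By number, scaffold 9 was densest, with 11.8 stretches per 10 Mb, against 11 on scaffold 2 and 4.22 on scaffold 6. Median lengths differed little, from 22400 bp on scaffold 8 to 25800 bp on scaffold 2. Without scaffold 2, 1212 stretches covered 1.79% of the remaining sequence.

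Scaffold 2 had both the highest share in long stretches and the highest share closed in all 3 tissues. Among the other scaffolds, those with the most long stretches were not those with the most closed sequence. Scaffold 6, the lowest by stretches, was closed in all 3 tissues over 47.8% of its length, next to 48.4% on scaffold 2. Scaffold 12 was closed over 39.7% and scaffold 17 over 34.0%, the lowest value, yet stretches covered 2.66% of scaffold 12 and 1.95% of scaffold 17. Across the 16 scaffolds, Spearman's rho between these shares was -0.129 and Pearson's r was -0.000396. Both shares come from the same segmentations, and the values are given as a description.

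**Figure D2:**
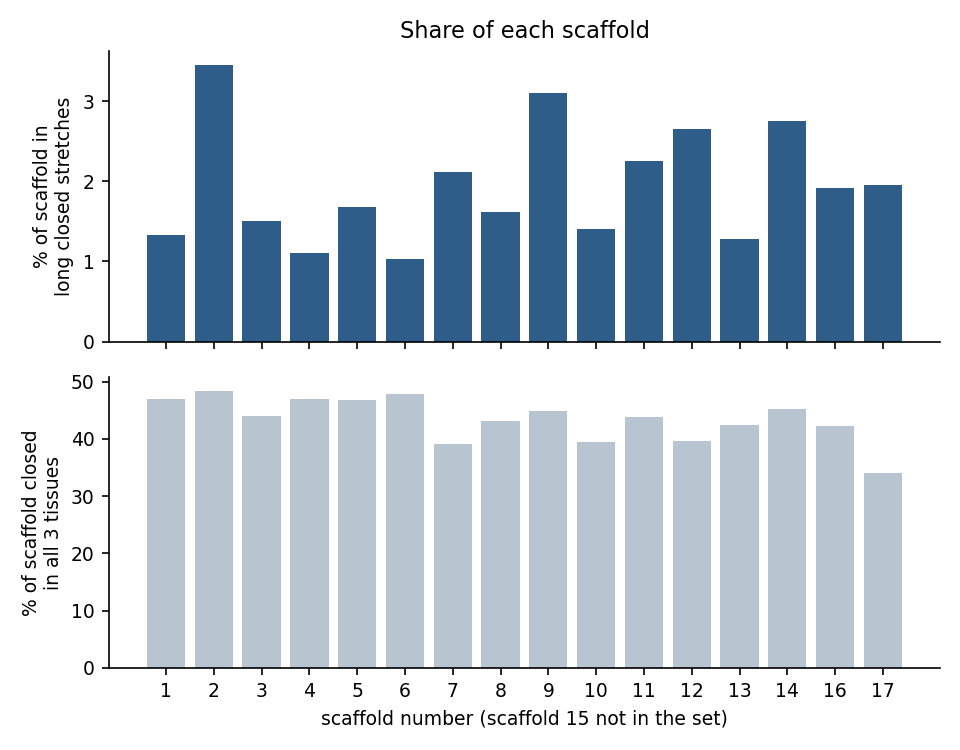
Share of each of the 16 scaffolds in long closed stretches (upper panel, %) and share closed in all 3 tissues (lower panel, %). The upper bars range from 1.03% to 3.46%, while the lower bars range from 34.0% to 48.4% in a different order.

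Long closed stretches lay in clusters separated by long intervals without any. The median gap, edge to edge, to the nearest other stretch on the same scaffold was 173 kb, with quartiles of 33.6 kb and 638 kb. Another stretch lay within 10 kb of 171 stretches (12.4%, 10.7% to 14.2%), within 100 kb of 569 (41.2%, 38.6% to 43.8%) and within 1 Mb of 1150 (83.3%, 81.2% to 85.1%). The remaining 231 (16.7%) stood more than 1 Mb from any other. Without scaffold 2, the share within 100 kb was 38.6%. With closed taken as state 4 only, there were 561 stretches, and 22.6% of them lay within 100 kb of another.

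In 1913 windows of 1 Mb, 1155 (60.4%) held the midpoint of no stretch, 447 held 1, 171 held 2 and 140 held 3 or more. Thus 758 windows, or 39.6%, held a stretch. The 140 windows with 3 or more were 7.32% of the windows and held 42.8% of the 1380 stretches in these windows. The variance of the count per window was 2.28 times its mean, and 1.91 times without scaffold 2. Windows next to one with 3 or more stretches held 1.85 stretches on average, those next to one with 1 or 2 held 0.844 and those next to an empty window held 0.522.

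**Figure D3:**
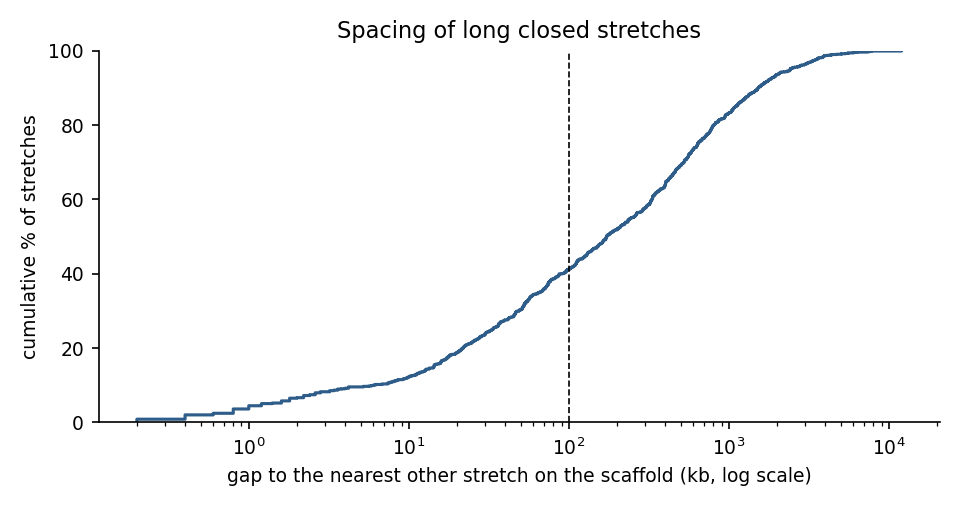
Cumulative share of the 1381 stretches (%) by the gap to the nearest other stretch on the same scaffold (kb, log axis). The dashed line marks 100 kb, reached by 41.2% of the stretches, and the curve passes 83.3% at 1 Mb.

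Joining neighbours with gaps of at most 100 kb gave 206 chains of 2 or more stretches, and 812 stretches stood alone. Of the chains, 136 held 2 stretches, 40 held 3 and 30 held 4 or more. Scaffold 2 carried 9 of the 30, scaffold 9 carried 5, and scaffolds 11 and 12 carried 3 each. Stretches in chains of 4 or more were longer, with a median of 27000 bp (n = 177), against 23600 bp for those standing alone. At least 30000 bp was reached by 42.9% of them, against 16.1% of those alone. Outside scaffold 2 the median in such chains was 26300 bp, and state 5 filled 5.56% (ovarian portion), 4.91% (testicular portion) and 4.78% (testis) of their length. For stretches alone these shares were 5.93%, 6.0% and 5.77%. With scaffold 2 they were 13.7%, 11.8% and 9.99% in the chains.

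The largest chain had 14 stretches within 859 kb on scaffold 2, from 19607801 to 20466400, and includes the longest stretch of the set. Stretches filled 74.1% of it. States 1 to 3 covered 3.45% of the whole chain (ovarian portion), 2.84% (testicular portion) and 2.82% (testis). Its stretches hold none of these states by the rule, so the share of the sequence between them was higher. The same holds for the chains below. State 1 covered 0.14% of the whole chain in the ovarian portion, and in the other tissues it was absent. State 5 covered 17.3%, 18.5% and 15.8%. The second chain held 12 stretches within 741 kb on scaffold 12, from 44440401 to 45181000. State 1 was absent from all of it in each tissue, and states 1 to 3 covered 2.32% (ovarian portion), 3.29% (testicular portion) and 1.65% (testis). State 5 was lower here than in the first chain, with 5.37%, 4.46% and 3.78%. The third chain, on scaffold 14 from 9526001 to 10136600, held 10 stretches within 611 kb. State 1 covered 0.0655%, 0.0655% and 0.0983% of it, and states 1 to 3 covered 6.75%, 9.27% and 9.5%.

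Among windows of 1 Mb, stretches filled the largest share on scaffold 2 from 20000001 to 21000000, with 53.8%. The windows of the same scaffold from 53000001, 52000001 and 54000001 followed with 48.8%, 45.9% and 45.1%, and form a block of 3 Mb. In these 4 windows state 5 covered 15.7% to 26.6% of the sequence (ovarian portion), 16.1% to 26.3% (testicular portion) and 14.4% to 16.7% (testis), well above its genome-wide share. The fifth window was on scaffold 12 from 44000001 to 45000000, with 36.4% in stretches. Outside its stretches this window was mixed, and states 1 to 3 covered 41.8% of the rest (ovarian portion), 51.2% (testicular portion) and 43.2% (testis).

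Intervals without a stretch reached 20.4 Mb, on scaffold 1 from 110783201 to 131173000. Of this interval 41.8% was closed in all 3 tissues, somewhat below the 44.1% of all bins and the 46.9% of scaffold 1. The longest run with state 5 below the limit was 19600 bp, and by the rule it had to be under 20000 bp. An interval of 18.7 Mb on scaffold 6, from 39148401 to 57862600, was closed in all 3 tissues over 44.0% of its length, against 47.8% of the scaffold. Its longest run was 19200 bp. Another of 15 Mb lay on scaffold 10 from 11808401 to 26840200 and was closed over 38.4%, against 39.4% of the scaffold. Stretches were less frequent near scaffold ends. Within 5 Mb of an end lay 78 stretches (5.65%, 4.55% to 6.99%), on 8.35% of the sequence, while within 20 Mb lay 31.4% (29.0% to 33.8%) on 33.4%.

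Around the stretches, states 1 to 3 were depleted out to 100 kb in each tissue. By the rule the first bin outside is in states 1 to 3 in at least 1 tissue, so the first 1 kb is set by it. From 5 to 20 kb away, states 1 to 3 covered 25.2% of the bins (ovarian portion), 22.8% (testicular portion) and 23.9% (testis), against 37.8%, 39.1% and 39.7% of all bins. From 20 to 100 kb away they covered 30.4%, 29.9% and 30.4%, from 100 to 500 kb away 36.7%, 38.1% and 38.4%, and beyond 1 Mb 41.8%, 43.5% and 44.4%. From 1 to 20 kb the share was below that of the whole scaffold on 16 of 16 scaffolds in each tissue. On single scaffolds it ranged from 20.3% to 28.5% (ovarian portion), from 17.9% to 29.4% (testicular portion) and from 21.7% to 28.0% (testis). A smaller depletion lay outside shorter closed runs. From 5 to 20 kb away from runs of 10 to 20 kb, states 1 to 3 covered 29.4% (ovarian portion), 29.2% (testicular portion) and 31.0% (testis). At that distance from runs of 5 to 10 kb they covered 35.3%, 36.4% and 38.2%. The depletion is thus not particular to the long stretches.

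**Figure D4:**
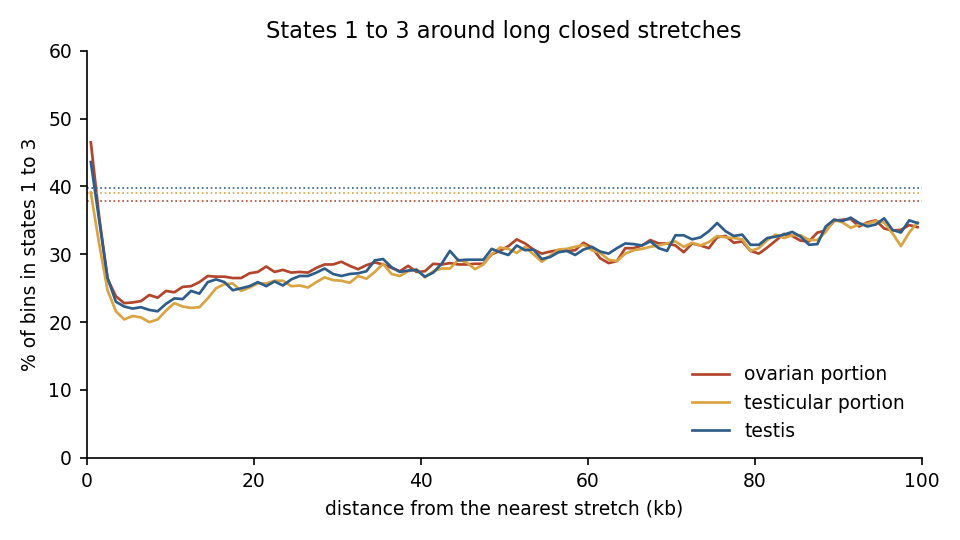
Share of bins in states 1 to 3 (%) by distance from the nearest long closed stretch (kb, classes of 1 kb) in the ovarian portion, the testicular portion and the testis. Dotted lines give each tissue's share over all bins, 37.8%, 39.1% and 39.7%, and the curves stay below them from about the second kb to 100 kb.

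State 1, the accessible state, was above its share of all bins from 1 to 5 kb away, and below it nearer by and from 5 to 100 kb away. From 1 to 5 kb away it covered 1.41% of the bins (ovarian portion), 1.23% (testicular portion) and 1.25% (testis), against 0.938%, 0.905% and 0.923% of all bins. This was above the scaffold's own share on 12, 11 and 12 of 16 scaffolds in that order of tissues. Outside shorter closed runs the share at the same distance was lower. It was 0.978%, 0.867% and 0.943% next to runs of 10 to 20 kb, and 0.813%, 0.738% and 0.862% next to runs of 5 to 10 kb. Within 1 kb of the stretches it was 0.384% (ovarian portion), 0.236% (testicular portion) and 0.361% (testis). From 5 to 20 kb away it was 0.91%, 0.84% and 0.856%, and from 20 to 100 kb away 0.888%, 0.814% and 0.876%. In the 140 windows of 1 Mb with 3 or more stretches, state 1 covered 0.847%, 0.798% and 0.843% of the sequence outside them, against 0.978%, 0.974% and 0.954% in the 1155 windows with none. Neighbouring bins are not independent, and no test was run. From the nearer edge of a stretch the nearest accessible bin lay at a median of 34.6 kb (ovarian portion), 35.4 kb (testicular portion) and 29.0 kb (testis). From any bin the median was close to this, at 33.2 kb, 34.4 kb and 27.6 kb in the same order. Counted from each bin, the median distance was 49.6 kb inside the stretches and 32.8 kb outside them (ovarian portion), 50.2 kb and 34.0 kb (testicular portion) and 44.0 kb and 27.2 kb (testis). Bins inside a stretch hold no state 1 by the rule, which adds to their distance. Of the 1381 stretches, an accessible bin lay within 1 kb of 37, 28 and 39, while 337, 374 and 277 had none within 100 kb. The matching shares of all bins are not given here, so these counts are not read as particular to the stretches. From stretch edges the upper quartile of the distance to the nearest accessible bin was 97.0 kb, 108.0 kb and 81.2 kb. From any bin it was 86.4 kb, 93.8 kb and 71.8 kb.

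Accessible regions close to a stretch were more often common to the tissues. A region here is a run of bins in state 1 in any tissue. Of 1072 regions within 20 kb of a stretch, 48.0% (45.1% to 51.0%) reached state 1 in all 3 tissues, against 36.6% (36.1% to 37.0%) of the 43712 regions more than 100 kb away. The share was higher within 20 kb than elsewhere on 15 of 16 scaffolds. It depended on the length of the region. Regions of 800 bp or longer were common to 3 tissues in 93.3% (90.1% to 95.5%) near stretches and 82.2% (81.5% to 82.9%) elsewhere, and those of 400 to 600 bp in 41.0% (36.4% to 45.8%) and 33.0% (32.4% to 33.6%). For regions of 200 bp the shares were 7.69% (5.22% to 11.2%) and 8.58% (8.15% to 9.03%), with overlapping intervals. Regions confined to 1 tissue within 20 kb of a stretch numbered 141 (13.2%) for the ovarian portion, 82 (7.65%) for the testicular portion and 161 (15%) for the testis. Over all accessible regions these shares were 15.4%, 9.67% and 18.5%, in the same order of tissues. The stretches themselves were chosen for agreement between tissues. Beyond the first bin outside, the rule sets no state in the regions near them. Whether the choice bears on these regions was not tested.

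Single tissues each had several times more long closed runs than the 3 had in common. By the same rule applied to 1 tissue, the ovarian portion had 8143 runs of 20000 bp or more, summing to 241 Mb or 12.6% of the sequence. The testicular portion had 7320 runs and 11%, and the testis had 5923 runs and 8.81%. Long closed stretches made up 15.2% (ovarian portion), 17.5% (testicular portion) and 21.8% (testis) of that length. A stretch lay in 16.4% (15.6% to 17.2%) of the runs of the ovarian portion, 18.3% (17.4% to 19.2%) of those of the testicular portion and 22.7% (21.6% to 23.7%) of those of the testis. Pairs of tissues differed little: 2656 runs were common to both portions, 2599 to the ovarian portion and the testis, and 2641 to the testicular portion and the testis.

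The closed run of each tissue reached only a little past the stretch it held. The median run around a stretch was 31400 bp (ovarian portion), 31600 bp (testicular portion) and 30400 bp (testis), or 1.16, 1.2 and 1.14 times the stretch. It was at least 2 times as long for 191 stretches (13.8%) in the ovarian portion, for 178 (12.9%) by the run of the testicular portion and for 140 (10.1%) by that of the testis. Exactly the extent of a tissue's own run was matched by 279 stretches for the ovarian portion, by 167 for the testicular portion and by 213 for the testis. For 0 of the 1381 was the extent the same in all 3 tissues. At the edges of closed runs of any length, all 3 tissues left the closed states together in only 1.7%. The count of 0 is therefore not read as particular to the stretches. Around the longest stretch the closed run was 173400 bp (ovarian portion), 120600 bp (testicular portion) and 173400 bp (testis). On scaffold 12, the 69400 bp stretch was the whole run of the testicular portion and part of runs of 150200 bp in the ovarian portion and 259400 bp in the testis.

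A stretch usually ended in 1 tissue while the others stayed closed. This was so at 2435 of 2761 edges (88.2%, 86.9% to 89.3%), a share near the 87.2% of all closed runs. One further edge fell on a scaffold end. All 3 tissues left the closed states together at 59 edges (2.14%, 1.66% to 2.75%). The step was almost always to state 3: at 2747 edges (99.5%) no tissue went beyond it, at 14 a tissue reached state 2, and at 0 state 1. With 3 counts of 2761 taken as the most that a count of 0 allows, that is a share of up to 0.109%, for counting error only. The Wilson interval for the same count is wider and reaches 0.139%. The state reached is not given here for closed runs of any length, so these shares are not read as particular to the stretches.

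The ovarian portion set more of these edges than the other tissues, where the rule requires only that some tissue leaves the closed states. It was in states 1 to 3 in the first bin outside at 42.7% of the edges (40.9% to 44.6%), the testicular portion at 34.2% (32.4% to 36.0%) and the testis at 37.0% (35.2% to 38.8%). For closed runs of any length the order was different, with 36.3% for the ovarian portion, 37.6% for the testicular portion and 40.6% for the testis. The ovarian portion had the highest share on 13 of 16 scaffolds, the testis on 2 and the testicular portion on 1. The tissue with the most closed sequence and the most long runs of its own was therefore the one that most often bounded the common stretches. From 1 to 20 kb outside, too, its states 1 to 3 were the highest of the 3 tissues, at 27.1% from 1 to 5 kb and 25.2% from 5 to 20 kb, although it had the lowest share over all bins.

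**Figure D5:**
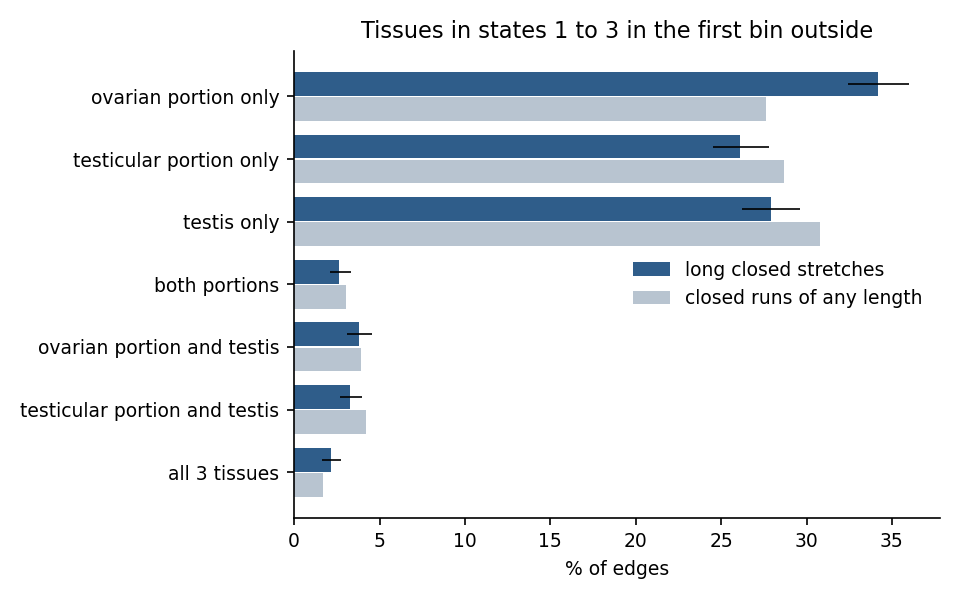
Share of edges (%) by the tissues that were in states 1 to 3 in the first bin outside, for long closed stretches and for closed runs of any length. Bars start at 0, lines are Wilson 95% intervals for the stretches, and the ovarian portion alone sets 34.2% of the edges of stretches and 27.6% of those of all runs.

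The interruptions next to the stretches were short. Their median was 1400 bp, against 2200 bp for every interruption of common closed chromatin, and 37.5% were at most 1000 bp long, against 27.3%. Interruptions of a single bin were about as frequent next to stretches (132, or 4.78%) as among every interruption (4.57%). Next to stretches 1 interruption is counted per edge, so a break shared by neighbouring stretches is counted from both sides. Among every interruption each is counted once. In 6 cases neighbouring stretches were kept apart by a single bin. Each of these bins was in state 3 in 1 tissue and in state 4 in the others: the testicular portion in 4 cases, the ovarian portion in 1 and the testis in 1. The longest such pair, at scaffold 2 with its break at 20311601 to 20311800, would join to 106600 bp, more than the longest stretch. Another on scaffold 14, with its break at 80481601 to 80481800, would join to 96600 bp.

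Windows that differed broadly between tissues held stretches at unequal shares. In 65 windows states 1 to 3 were at least 20 percentage points higher in the testicular portion than in the ovarian portion, and these held 21 stretches in 17 windows (26.2%, against the 39.6% of all windows that held a stretch). The 7 windows with the opposite difference held 3 stretches in 2 windows. In 55 windows states 1 to 3 were higher by as much in the ovarian portion than in the testis. They held 33 stretches in 22 windows, and that 40% is near the share of all windows. The 56 windows higher in the testis than in the ovarian portion held 16 stretches in 14 windows (25%). No test was run on these counts, and the rule needs sequence that is closed in each tissue.

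The stretches are given by position only. The scaffold names in the authors' gene models are those of talOcc3, 0 of which occur in the segmentations, and of 21597 protein-coding genes in the RefSeq table used here 13 have a named scaffold.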

How the data were processed

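ATAC-seq was measured in 2 samples each of the ovarian portion, the testicular portion and the testis, with 50000 cells per reaction, per the labels' protocols. The authors deposited 1 segmentation per tissue, with a state number from 1 to 5 for segments whose ends are multiples of 200 bp. The state is a category, and the method that assigned it to the mole libraries was not given in the sources at hand. STAR 2.6.1d and mm9 appear in the submitters' processing notes, without a role. State numbers were taken as equivalent across tissues. Depth is unknown, which limits how far absent signal can be read.

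Segments were expanded to bins, and runs in state 4 or 5 in all 3 tissues of at least 20000 bp were taken, with state 5 in less than 50% of the bins. A gap is counted edge to edge. Windows of 1 Mb filled to at least 80% were kept, and a stretch belongs to the window of its midpoint. The same steps were repeated for single tissues and pairs. On simulated states of 500000 bins, 181 of 181 placed runs were recovered exactly. Positions are 1-based on talOcc4. Work was done in Python 3.11.15 with numpy 2.4.6, pandas 2.3.3, scipy 1.17.1 and matplotlib 3.10.9.

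The rule, the limits and the regions named (the longest stretches, those near the limits, the fullest windows and the largest chains) were chosen with earlier results of these data known. The profile by distance, the accessible regions near stretches, the stretches without state 5, the split of state 5 by length and scaffold and the longest empty intervals were added after the values were seen. No test was made between tissues, since each is 1 pooled value. Scaffold 15 and the scaffolds after 17 are outside the set.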

Additional observations from a re-analysis of the deposited data

Results flagged for a closer look

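Scaffold 15, left out by the rule, held 607 stretches of the same kind, in data outside the set described above. They summed to 17.7 Mb, or 19.9% of its 88.9 Mb. The density was 68.3 per 10 Mb on scaffold 15 and 7.21 per 10 Mb on the 16 scaffolds, a ratio of 9.47. The stretches there were of similar length, with a median of 25400 bp and a maximum of 104400 bp, and closer together, with a median nearest gap of 23.8 kb and 85.5% within 100 kb of another. Bins closed in all 3 tissues covered 72.1% of the scaffold. State 5 filled 3.95% (ovarian portion), 4.88% (testicular portion) and 7.57% (testis) of the length of these stretches.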

How the results depend on the processing

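No paired analysis was possible because both samples of a tissue share 1 segmentation, and for the same reason no sample could be left out. Of 46 values recomputed, 13 stayed within their limits (1.5 times for the count, the 95% interval otherwise) and 33 moved. For coverage that interval, 1.91% to 1.93%, treats bins as independent and is too narrow, so each coverage alternative counted as moved. Changes of the distance or of the minimum length alter the measure itself. The count of moved values is therefore not a measure of robustness. With a minimum of 10000 bp there were 12122 stretches, with a median of 12800 bp, covering 9.2% of the sequence, and 83.5% lay within 100 kb of another. With 40000 bp these values were 86, 46600 bp, 0.236% and 32.6%. With state 4 only they were 561, 22800 bp, 0.711% and 22.6%. Without a limit on state 5 the stretches covered 2.31% and 45.5% lay within 100 kb, and with a limit of 10% they covered 1.38% and 34.6% did. The share of clustered stretches thus moved with the limit on state 5. The number of stretches moved with it as well, to 1513 without the limit and 1018 at 10%. Effects of number and of state 5 content on that share were not separated. Bridging single bins raised the coverage to 2.24%. Leaving out the ovarian portion gave 2641 stretches, 3.79%, a median of 24600 bp and 50.8% within 100 kb. Leaving out the testicular portion gave 2599, 3.65% and 51.2%, and leaving out the testis 2656, 3.73% and 51.3%. With scaffold 15 the coverage was 2.72% and 54.7% lay within 100 kb. Without scaffold 2, an alternative chosen after seeing the data, they were 1.79% and 38.6%. Within 50 kb of another lay 30.3%, and within 200 kb 51.9%. The unknown depth limits any reading of closed as inaccessible rather than unread.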
